A study of Mus musculus with 2 samples.

Results

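C1q-high macrophages were a small class of cells that came through a sort for tumour Tregs, the Foxp3-dependent CD4 T cells that restrain immune responses. They were taken as the cell barcodes with at least 10 UMIs of C1qa, C1qb and C1qc together, at least 5 UMIs of Lyz2 and Apoe together, and at most 3 UMIs of the T cell chains Cd3d, Cd3e and Cd3g. A UMI, or unique molecular identifier, counts 1 captured transcript. Barcodes had to hold at least 500 genes and under 10% mitochondrial UMIs. The rule found 103 cells among 7868 barcodes. Of these, 88 came from the library of mice in which Jmjd1c was deleted in Tregs (cKO, 4026 barcodes) and 15 from the library of wild-type mice (WT, 3842 barcodes). The cells were thus chosen by their UMIs of these 8 genes, whose levels are given as a description.

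Both libraries were made from tumours of C57BL/6 mice 8 to 12 weeks old, by droplet sequencing of transcript 3' ends after magnetic selection and a fluorescence sort for Tregs. The cKO mice are labelled JMJD1CTregcKO and the WT mice JMJD1CWT, and the deletion is stated for Tregs and not for macrophages. The labels give neither the tumour model, the number of animals, the driver of the deletion nor the exons removed. With 1 library per group, no difference between cKO and WT has a replicate check, and the 95% intervals given account for counting error alone. The cKO library also differed in sex: Xist, the RNA of the inactive X chromosome, stood at 0 UMIs in cKO C1q-high cells against 250 UMIs in WT, and the Y-linked Ddx3y at 98 against 0 UMIs. Sex and genotype cannot be told apart here. Jmjd1c itself (chromosome 10, 67096125 to 67256326, plus strand, mm10) stood at 60.5 CPM (49.2 to 73.8) in cKO and 95.7 CPM (69.2 to 129) in WT in C1q-high cells. Its 3' tags can lie outside the deleted part, so they check neither the deletion nor the labels.

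C1q is the recognition part of the classical complement pathway, built from the chains A, B and C that C1qa, C1qb and C1qc encode. Most C1q in the body is made by macrophages, which take up dying cells and debris, and C1q on such debris marks it for uptake. In tumours, macrophages arise largely from blood monocytes, and cells rich in C1q, Apoe, Trem2 and Mrc1 are commonly set apart from monocyte-like cells rich in Ly6c2, Plac8 and Vcan.

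The 3 C1q genes lie side by side on the minus strand of chromosome 4 in mm10: C1qb at 136880129 to 136886187, C1qc at 136889804 to 136893065 and C1qa at 136895917 to 136898803. Promoter windows from 250 bases before to 50 after the gene start were read from RefSeq (GRCm38.p6) for C1qb, C1qc and the 3 genes that stood highest over C1q-low cells, Ccl8, Pf4 and Fcrls, because these genes define the class or lead it. The RefSeq starts can differ from the gene positions given here, which come from GENCODE. By those positions the C1qc and Fcrls windows lie mostly inside the gene. No C1qa window was read. Each is printed 5′ to 3′ on the gene's own strand, with GAGGAA, or TTCCTC where it lies on the other strand, in capitals. GAGGAA is a core sequence bound by PU.1, the transcription factor encoded by Spi1 that macrophages depend on.
C1qb, chr4:136886151-136886450, minus strand: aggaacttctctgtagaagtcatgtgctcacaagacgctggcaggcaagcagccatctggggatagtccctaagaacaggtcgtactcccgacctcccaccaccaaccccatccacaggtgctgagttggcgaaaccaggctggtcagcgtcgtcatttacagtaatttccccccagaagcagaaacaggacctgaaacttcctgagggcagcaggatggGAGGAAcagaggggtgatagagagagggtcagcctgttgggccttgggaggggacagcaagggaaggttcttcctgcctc
C1qc, chr4:136892865-136893164, minus strand: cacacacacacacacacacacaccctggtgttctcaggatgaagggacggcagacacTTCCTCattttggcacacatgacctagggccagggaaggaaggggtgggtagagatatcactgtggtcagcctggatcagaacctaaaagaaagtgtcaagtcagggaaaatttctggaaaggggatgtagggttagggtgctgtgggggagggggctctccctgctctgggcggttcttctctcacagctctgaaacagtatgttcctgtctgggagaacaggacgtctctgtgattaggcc
Ccl8, chr11:82114935-82115234, plus strand: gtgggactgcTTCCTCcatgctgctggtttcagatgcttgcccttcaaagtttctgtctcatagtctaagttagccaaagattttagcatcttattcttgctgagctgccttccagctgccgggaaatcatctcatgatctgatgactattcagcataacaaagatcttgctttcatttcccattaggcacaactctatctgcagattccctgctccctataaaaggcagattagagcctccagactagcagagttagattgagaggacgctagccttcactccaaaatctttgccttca
Pf4, chr5:90772185-90772484, plus strand: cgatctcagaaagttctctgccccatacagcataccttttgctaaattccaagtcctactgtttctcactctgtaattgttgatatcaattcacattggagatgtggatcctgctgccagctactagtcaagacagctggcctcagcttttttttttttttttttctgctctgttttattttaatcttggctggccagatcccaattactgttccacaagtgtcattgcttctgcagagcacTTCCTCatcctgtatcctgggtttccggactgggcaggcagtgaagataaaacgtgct
Fcrls, chr3:87263475-87263774, minus strand: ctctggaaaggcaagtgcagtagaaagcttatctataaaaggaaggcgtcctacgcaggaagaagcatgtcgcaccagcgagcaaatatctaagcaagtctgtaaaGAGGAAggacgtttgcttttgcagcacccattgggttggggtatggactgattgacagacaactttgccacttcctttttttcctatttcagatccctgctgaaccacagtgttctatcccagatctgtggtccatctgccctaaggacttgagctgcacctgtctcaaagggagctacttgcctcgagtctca
Each of the 5 windows held the motif once on either strand, as did 28.3% of the 32851 mouse promoter windows of this length. Among the 15 genes highest in C1q-high cells, 14 were matched and 7 held it; among the 15 lowest, 12 were matched and 4 held it. By gene, the motif was in at least 1 window of 31.3% of all 27025 genes in the table. A match describes these letters only and is not a binding site.

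C1q-high cells made up 2.19% of kept cKO barcodes (1.76 to 2.69) and 0.390% of kept WT barcodes (0.219 to 0.643). The sort for Tregs can set these shares. C1q-low Lyz2 cells (under 10 C1q UMIs, at least 5 Lyz2 UMIs, at most 3 Cd3 UMIs) made up 4.07% in cKO (164 cells) and 1.15% in WT (44 cells), so that C1q-high cells were 34.9% (29.0 to 41.2) of the 252 myeloid cells of both kinds in cKO and 25.4% (14.98 to 38.4) of the 59 in WT. Those intervals overlap. The limit on Cd3 UMIs removed 26 of 114 cKO barcodes and 22 of 37 WT barcodes with at least 10 C1q UMIs, which is 22.8% and 59.5%. Their medians were 15.5 Cd3 UMIs and 20699 UMIs in all in cKO, and 20.5 and 26646 in WT. Whether they were 2 cells in 1 droplet was not tested. C1q UMIs were also found in T cells without Lyz2 UMIs, in 7.78% of 2944 in cKO and 4.05% of 3459 in WT, with at most 19 and 25 UMIs in a cell. The libraries shared 2 barcodes, and none of them was among the C1q-high cells.

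The C1q-high cells were deeply read. They held a median of 16463 UMIs (1401 to 45930) and 3464 genes in cKO, and 24670 UMIs (3654 to 70808) and 4189 genes in WT, in all 1618606 and 449525 UMIs. C1q UMIs per cell had a median of 107 (10 to 730) in cKO and 443 (41 to 839) in WT. C1qa, C1qb and C1qc gave 35.03%, 39.6% and 25.4% of C1q UMIs in cKO, against 37.1%, 37.6% and 25.3% in WT. Near the threshold the cKO library was thinly filled: 9 cells had 5 to 9 C1q UMIs and 8 had 10 to 19, with Lyz2 at 14715 and 11303 CPM (UMIs of the gene scaled to 1000000 UMIs of the class) and Mrc1 at 35.4 and 109.97 CPM. The WT library had no such cell with 5 to 19 C1q UMIs.

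**Figure D1:**
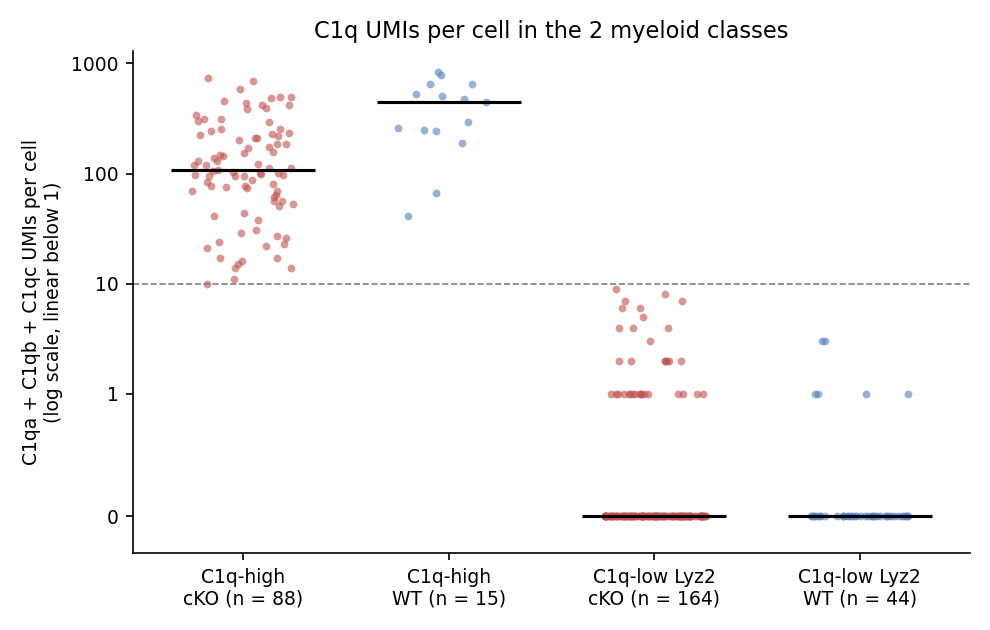
C1q UMIs per cell (log scale, linear below 1) in C1q-high and C1q-low Lyz2 cells of each library; points are cells, bars are medians and the dashed line is the threshold of 10. The median of C1q-high cells is 107 in cKO and 443 in WT, and that of C1q-low cells is 0 in both.

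Macrophage markers that the rule had not used were found in most of the cells. After thinning each cell to 8600 UMIs, with shallower cells left out, Csf1r, the receptor for the macrophage growth factor CSF1, had a UMI in 92.4% of cKO (84.2 to 97.2) and 100% of WT C1q-high cells (76.8 to 100). Adgre1, which encodes F4/80, had one in 72.2% of cKO (60.9 to 81.7) and 100% of WT C1q-high cells (76.8 to 100). Csf1r and Adgre1 had a UMI in 1.63% and 0.350% of 857 thinned T cells of cKO and in 0.824% and 0.0589% of 1698 of WT (Cd3 sum of at least 4, no Lyz2 or C1q UMI). The thinned C1q-high cells were 79 of 88 in cKO and 14 of 15 in WT.

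The levels of genes that mark other cells varied by list. Foxp3, which defines Tregs, stood at 0 UMIs in both libraries, which allows up to 1.85 CPM in cKO and 6.67 CPM in WT C1q-high cells. A list of 12 T cell genes outside the rule summed to 63.02 CPM in cKO and 46.7 CPM in WT C1q-high cells (11 and 8 genes detected), against 6669 CPM in cKO and 5259.6 CPM in WT T cells. The 12 genes of a Treg list summed to 1119 CPM in cKO and 759 CPM in WT C1q-high cells, against 17748 CPM in cKO and 11754 CPM in WT T cells, and Capg, an actin-capping protein that macrophages also make, gave 803 CPM in cKO and 523 CPM in WT of it. Gzmb, a protease of cytotoxic cells and activated Tregs, had UMIs in 31 of 88 cKO and 1 of 15 WT cells, at 33.4 CPM in cKO and 2.22 CPM in WT, against 3971 and 565 CPM in T cells. CD8 T and NK cell genes summed to 791 CPM in cKO and 556 CPM in WT, of which the chemokine Ccl5 gave 718 CPM in cKO and 516 CPM in WT, with Ncr1, Eomes and Xcl1 at 0. Plasmacytoid dendritic cell genes summed to 1140.5 CPM in cKO and 1355 CPM in WT C1q-high cells, against 543 CPM in cKO and 518 CPM in WT T cells, led by Bst2 and Irf8, with Siglech at 0. The part of such cells or their free RNA in the results was not tested. Of 11 other dendritic cell genes, 7 were detected in cKO and 4 in WT, summing to 48.8 CPM in cKO and 105 CPM in WT, with Flt3 and Xcr1 at 0. Of the WT Ccr7 UMIs, 92.7% lay in 1 cell, which had 66 C1q UMIs, and 91.9% of those of cKO also lay in 1 cell. The WT cell had Lyz2 at 88.5 CPM and held 75% of the WT UMIs of Trac, a T cell receptor gene. It met the rule and was kept. Fibroblast genes summed to 86.5 CPM in cKO and 8.90 CPM in WT, and 97.3% of the cKO Col1a1 UMIs lay in 1 cell with 17 C1q UMIs. Neutrophil genes summed to 32.1 CPM in cKO and 24.5 CPM in WT, with 7 of 10 at 0. B cell genes summed to 32.7 CPM in cKO and 105 CPM in WT, with Ms4a1 at 0.

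Against C1q-low Lyz2 cells of the same library, C1q-high cells carried more transcripts of Ccl8, Pf4, Fcrls, Mrc1 and Cd63, among others, and fewer of monocyte genes. Of the 4945 genes whose mean over the sums reached 20 CPM, 81 (1.64%) stood at least 2-fold higher in both libraries and 91 (1.84%) at least 2-fold lower, on the scale log2((CPM + 5)/(CPM + 5)) used throughout. Taken alone, the cKO library had 3.13% of them at least 2-fold higher and 2.71% lower, and the WT library 4.91% and 8.31%. The median log2 ratio over all these genes was 0.02 in cKO and -0.08 in WT. The classes were split on C1q, so these differences describe them and were not tested.

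The gene that differed most was Ccl8, a chemokine that draws monocytes and T cells (chromosome 11, 82115185 to 82116799, plus strand). It stood at 526 CPM in C1q-high against 0.580 CPM in C1q-low cells of cKO, and 196 against 0 CPM in WT. It was carried by few cells, 16 of 88 cKO and 5 of 15 WT cells, and 1 cell held 51.2% of the cKO UMIs. Against the floor of 3 counts in WT C1q-low cells, where it had no UMI, it was at least 42.3-fold higher.
Pf4, a platelet-type chemokine that macrophages also make (chromosome 5, 90772435 to 90773383, plus strand), stood at 628 CPM in C1q-high against 31.3 CPM in C1q-low cells of cKO, and 216 against 0 CPM in WT, at least 46.6-fold higher there. A single cell held 64.9% of the WT Pf4 UMIs. Fcrls, an Fc receptor-like gene of mouse microglia (chromosome 3, 87250758 to 87263738, minus strand), stood at 99.5 CPM in C1q-high against 1.16 CPM in C1q-low cells of cKO, and 182 against 0 CPM in WT. Ccl8 and Fcrls were thus almost absent from C1q-low cells, while Pf4 was present at a low level in those of cKO.

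The other leading genes were Cd81, Mrc1, Mt2, Cd72, Ms4a7, Zmynd15, Cd63, Pclaf, Olfml3, Timp2, Gatm and Igfbp4. Mrc1, the mannose receptor CD206 (chromosome 2, 14229392 to 14332057, plus strand), stood at 171 CPM in C1q-high against 15.1 CPM in C1q-low cells of cKO, and 133 against 6.18 CPM in WT. Its log2 ratio was 3.13 in cKO and 3.63 in WT. Cd63, a tetraspanin of late endosomes and lysosomes, stood at 296 CPM in C1q-high against 39.4 CPM in C1q-low cells of cKO, and 416 against 57.1 CPM in WT. Its log2 ratio was 2.76 in each library. Ms4a7, a membrane protein of mature macrophages, had a log2 ratio of 2.80 in cKO and 4.27 in WT. Cd72 (2.85 in cKO and 4.35 in WT) is an inhibitory receptor known from B cells, and Gatm (2.44 in cKO and 3.01 in WT) is the enzyme that starts creatine synthesis. Pclaf, a gene of DNA replication, rested on 1 cell in WT, which held all of its UMIs.

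**Figure D2:**
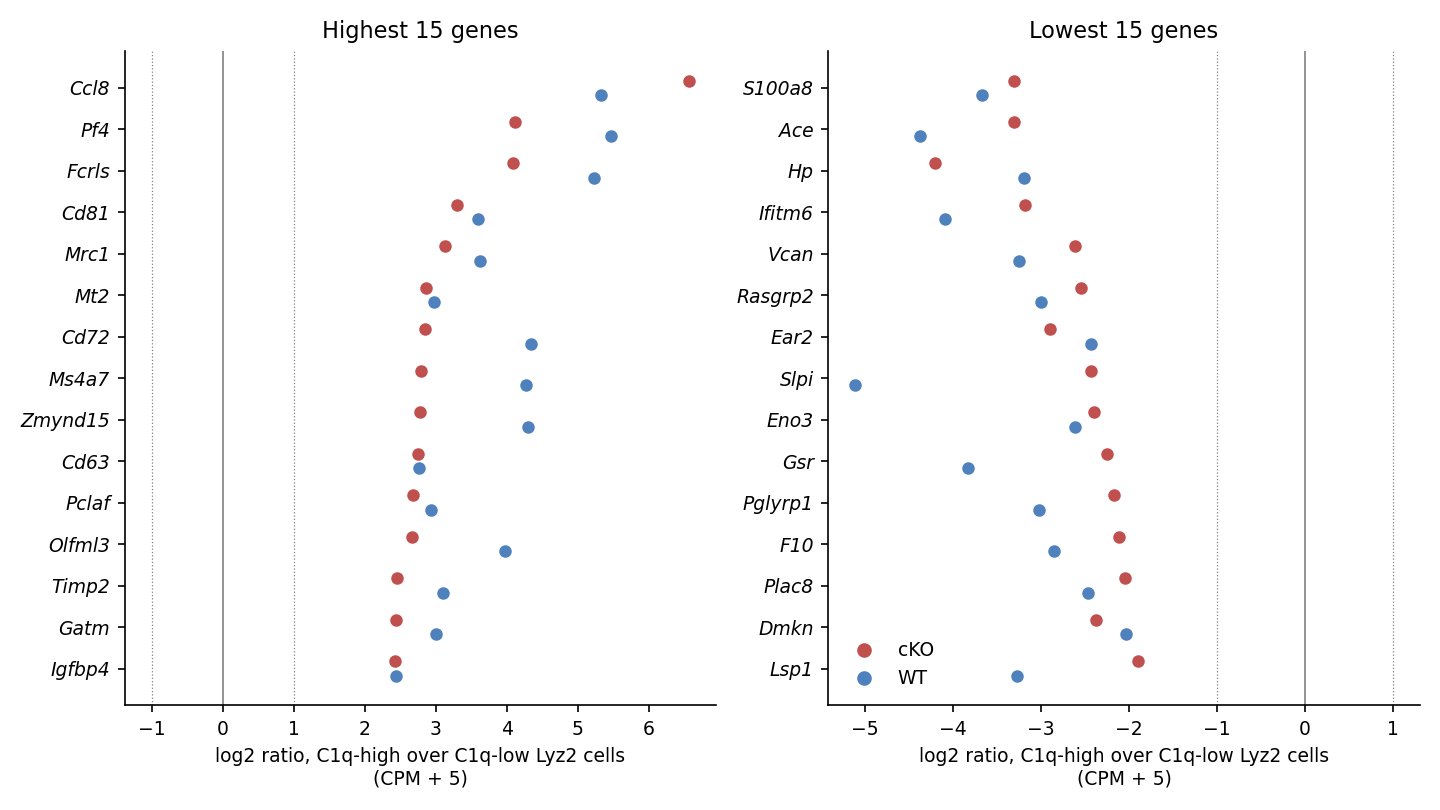
Log2 ratio of CPM + 5, C1q-high over C1q-low Lyz2 cells, in cKO and WT, for the 15 highest and 15 lowest genes by the smaller ratio of the 2 libraries. Dotted lines mark 2-fold; both libraries lie beyond them for all 30 genes, and Ccl8 reaches 6.57 in cKO.

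Of 15 genes that mark resident macrophages, 6 passed the filter on the mean, and of these Mrc1, Selenop and Pf4 stood at least 2-fold higher in both libraries and Clec10a lower. Over all 4945 genes, 1.64% stood at least 2-fold higher in both and 1.84% lower. Low members can pass the filter through C1q-high cells alone, so the count for the list only describes them. Selenop, a secreted selenium carrier, stood at 174 CPM in C1q-high against 68.4 CPM in C1q-low cells of cKO, and 681 against 140.5 CPM in WT. Cd163, Lyve1 and Timd4, which mark resident macrophages of several organs, were at 0 UMIs in C1q-high cells of both libraries. Folr2 was below the filter. It had UMIs in 18 of 88 cKO and 2 of 15 WT cells, at 31.5 CPM (23.5 to 41.4) in cKO and 6.67 CPM (1.38 to 19.5) in WT.

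Fcrls, Olfml3 and Tmem119, which are known from mouse microglia, stood at least 2-fold higher in both libraries. Tmem119, a membrane protein, stood at 48.8 CPM in C1q-high against 8.12 CPM in C1q-low cells of cKO, and 131 against 44.8 CPM in WT. Sall1, a transcription factor that defines microglia, and Siglech had no UMI in C1q-high cells, and P2ry12 stood at 9.89 CPM (5.65 to 16.1) in cKO and 8.90 CPM (2.42 to 22.8) in WT.

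Uptake and digestion genes stood less far apart. Over all 4945 genes, 1.64% stood at least 2-fold higher in both libraries, and the median log2 ratio was 0.02 in cKO and -0.08 in WT. Of 21 genes of scavenging and efferocytosis (the uptake of dying cells), 12 passed the filter and 4 of these stood at least 2-fold higher in both libraries and none lower: Mrc1, the receptor kinase Axl (1.69 in cKO and 1.44 in WT), the integrin Itgb5 (1.51 in cKO and 1.47 in WT) and the cholesterol exporter Abca1 (1.11 in cKO and 1.44 in WT). Of 22 lysosomal genes, 17 were above 0 in both libraries, Lgmn and Grn among those past 2-fold, with medians of 0.42 and 0.43. Lgmn, the lysosomal protease legumain, stood at 1370.3 CPM in C1q-high against 503 CPM in C1q-low cells of cKO, and 1255 against 372 CPM in WT. Grn, the precursor of lysosomal granulins, had a log2 ratio of 1.21 in cKO and 1.41 in WT. The 7 Fc receptor genes were all higher in both libraries, and 2, Fcrls and the neonatal receptor Fcgrt, passed 2-fold. The inhibitory receptor Fcgr2b had 1.09 in cKO and 0.69 in WT and the activating Fcgr4 0.94 in cKO and 1.91 in WT.

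Trem2, a lipid-sensing receptor of macrophages, stood at 321 CPM in C1q-high against 67.9 CPM in C1q-low cells of cKO, and 345 against 84.9 CPM in WT, a log2 ratio of 2.16 in cKO and 1.96 in WT. Of the 18 lipid-handling genes that passed the filter, out of 24, Trem2, Cd63 and Abca1 passed 2-fold in both libraries. The list as a whole was not higher: 6 genes were above 0 in both libraries and 6 below, with medians of 0.04 in cKO and -0.42 in WT. Gpnmb had UMIs in 6 of 88 cKO and 0 of 15 WT cells, and Fabp4 was at 0 in C1q-high cells. Genes of MHC class II, which presents antigen to CD4 T cells, were higher in both libraries for 8 of the 12 that passed the filter, out of 15, with none past 2-fold in both. The list's medians were 0.39 in cKO and 1.01 in WT, against 0.02 and -0.08 over all genes. H2-Aa stood at 5945 CPM in C1q-high against 3697 CPM in C1q-low cells of cKO, and 7289.9 against 2413 CPM in WT. The WT value includes the cell with 66 C1q UMIs described above, which stood at 23139.5 CPM.

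Monocyte genes were lower in C1q-high cells. All 15 listed passed the filter, and 8 stood at least 2-fold lower in both libraries and none higher, with a median of -1.87 in cKO and -1.87 in WT. Over all 4945 genes, 1.84% stood at least 2-fold lower in both. Members low in C1q-high cells can pass the filter through C1q-low cells alone, so this count only describes them. Plac8, a protein abundant in monocytes, stood at 819.8 CPM in C1q-high against 3382 CPM in C1q-low cells of cKO, and 723 against 3994 CPM in WT. Hp, which encodes haptoglobin, stood at 13.6 CPM in C1q-high against 336 CPM in C1q-low cells of cKO, and 20.02 against 224 CPM in WT. Ly6c2, the surface mark of inflammatory monocytes, stood at 641 CPM in C1q-high against 1809.7 CPM in C1q-low cells of cKO, and 291 against 1076 CPM in WT. Ace, an enzyme of patrolling monocytes, stood at 3.71 CPM in C1q-high against 81.2 CPM in C1q-low cells of cKO, and 0 against 98.8 CPM in WT. The exception was Fn1, or fibronectin, at 840.2 CPM in C1q-high against 372 CPM in C1q-low cells of cKO, and 574 against 715 CPM in WT.

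The other lowest genes included S100a8, Ifitm6, Vcan, Rasgrp2, Ear2, Slpi, Eno3, Gsr, Pglyrp1, F10, Dmkn and Lsp1. S100a8, a calcium-binding protein of neutrophils and monocytes, stood at 2.47 CPM in C1q-high against 69.02 CPM in C1q-low cells of cKO, and 0 against 58.7 CPM in WT. The neutrophil list that holds it was uneven over C1q-low cells. It had UMIs in 68 of 164 of cKO, with a median of 0 and a maximum of 38015.8 CPM per cell. In WT it had UMIs in 20 of 44, with a median of 0 and a maximum of 1955 CPM. Slpi, a secreted protease inhibitor, stood at 109 CPM in C1q-high against 610.2 CPM in C1q-low cells of cKO, and 8.90 against 474 CPM in WT. Lsp1, an actin-binding protein of leukocytes, stood at 173 CPM in C1q-high against 658 CPM in C1q-low cells of cKO, and 57.8 against 602 CPM in WT. Of 20 genes of the type I interferon response (22 listed), none passed 2-fold upwards and 2 passed it downwards, with medians of -0.61 and -0.46. Over all genes 1.64% passed 2-fold upwards in both libraries and 1.84% downwards, with medians of 0.02 and -0.08. Among 17 chemokines (21 listed), Ccl8, Pf4 and Cxcl9 passed 2-fold upwards in both libraries and Cxcl10 downwards. Cxcl9 stood at 1899.8 CPM in C1q-high against 888 CPM in C1q-low cells of cKO, and 921 against 140.5 CPM in WT and Cxcl10 at 576 CPM in C1q-high against 1443 CPM in C1q-low cells of cKO, and 503 against 1056 CPM in WT; both recruit T cells through Cxcr3.

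Within the cKO C1q-high cells some of the same genes graded with C1q and others did not. Over the 79 cells thinned to 8600 UMIs, which share 1 library and 1 depth, Spearman's rho with C1q UMIs was 0.58 for Pf4, 0.57 for Trem2, 0.54 for Cd63 and 0.50 for Mrc1. It was -0.53 for the summed monocyte list, -0.46 for Ly6c2 and -0.44 for Il1b, which encodes an inflammatory cytokine. For other summed lists it was 0.60 for resident macrophage genes and 0.55 for lysosomal genes. It was 0.09 for complement, -0.02 for lipid handling, -0.10 for MHC class II and -0.18 for macrophage identity, and -0.04 for the gene Mertk. These are descriptions of cells of 1 sample and carry no test. In the 39 cells above the median of 63 thinned C1q UMIs, Ms4a7 had a UMI in 35, Mrc1 in 22 and Ly6c2 in 13. In the 40 at or below it, Ms4a7 had a UMI in 16, Mrc1 in 9 and Ly6c2 in 28. Thus Ly6c2 was present in part of the cells with little C1q, and 12 of the 79 cells had both Ly6c2 and Mrc1 UMIs.

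Between the libraries, C1q-high cells of cKO carried more transcripts of interferon gamma-induced genes and of Inhba, Nos2 and Mmp12, and fewer of Selenop, Ccl12 and the Tmem176 pair. Of the 4923 genes that passed the filter here, 191 (3.88%) were at least 2-fold higher in cKO and 101 (2.05%) at least 2-fold lower, with a median log2 ratio of 0.06 over all of them. In C1q-low Lyz2 cells 1.9% were at least 2-fold higher and 2.41% lower. The WT side rests on 15 cells. For 9 of the 15 highest and 6 of the 15 lowest genes, a single WT cell held over 50% of the WT UMIs, a spread between cells that the counting intervals leave out. The deepest WT cell, with 70808 UMIs, held the largest part for Inhba, Cnn3, Nos2, Gbp4, Hilpda, Adora2a and Upp1. Other WT cells did so for Hspa1a, Hspa1b, Iigp1 and Ifitm1. Of the 15 highest, 10 were also above 0 in C1q-low Lyz2 cells and 12 in T cells, and of the 15 lowest, 12 and 13 were below 0 there.

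C1q UMIs per cell were lower in cKO, as given above, and genes that vary with C1q can differ with them. Among cells with at least 100 C1q UMIs (48 in cKO and 13 in WT), the 15 highest genes were all above 0 and 14 of them at least 2-fold higher, and 14 of the 15 lowest were at least 2-fold lower. Among cells without a UMI of the Cd3 chains or the T cell receptor constant genes (52 in cKO and 8 in WT), 14 of the highest and 9 of the lowest passed 2-fold in their direction. The genes were chosen by their ratios over the same cells, so these counts only describe them. A threshold of 100 UMIs does not make C1q equal between the libraries. In thinned cKO C1q-high cells, Spearman's rho with C1q UMIs was -0.33 for Inhba, -0.10 for Nos2, 0.38 for Selenop and 0.33 for Ccl12. The part of C1q in these differences was not tested.

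Inhba, the subunit of activin A (chromosome 13, 16011851 to 16031621, plus strand), stood highest. It had 321 CPM (294 to 349) in cKO and 8.90 CPM (2.42 to 22.8) in WT and UMIs in 42 of 88 cKO and 3 of 15 WT cells. Its log2 ratio was 4.55 (3.81 to 7.05), against -0.27 in C1q-low cells, and 3.61 among cells with at least 100 C1q UMIs. Nos2, the inducible nitric oxide synthase of activated macrophages, stood at 104 CPM (89.3 to 121) in cKO and 8.90 CPM (2.42 to 22.8) in WT in 20 of 88 cKO and 1 of 15 WT cells. Its log2 ratio was 2.98 (2.17 to 5.45), against -0.01 in C1q-low cells. Mmp12, the macrophage elastase (chromosome 9, 7344381 to 7369499, plus strand), stood at 64.9 CPM (53.1 to 78.5) in cKO and 0 CPM (a count of 0 allows up to 6.67) in WT in 16 of 88 cKO and 0 of 15 WT cells, at least 9.72-fold higher. Procr, the protein C receptor, stood at 42.6 CPM (33.2 to 53.95) in cKO and 0 CPM (a count of 0 allows up to 6.67) in WT, at least 6.39-fold higher. Col1a1, a collagen of fibroblasts, was at least 6.94-fold higher but rested largely on 1 cKO cell.

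Others among the 15 were the heat shock genes Hspa1a and Hspa1b, the interferon-induced Gbp4, Iigp1 and Ifitm1, the lipid droplet protein Hilpda and the adenosine receptor Adora2a. Cnn3, Slpi and Upp1 completed the set. Iigp1, a GTPase against intracellular parasites, stood at 177 CPM (157 to 199) in cKO and 28.9 CPM (15.4 to 49.5) in WT, a log2 ratio of 2.43 (1.82 to 3.54) against 2.79 in C1q-low cells and 0.78 in T cells. Ifitm1, a membrane protein against viruses, stood at 1024 CPM (975 to 1074) in cKO and 187 CPM (149 to 231) in WT in 66 of 88 cKO and 5 of 15 WT cells, a log2 ratio of 2.42 (2.14 to 2.79). Hilpda stood at 219 CPM (197 to 243) in cKO and 35.6 CPM (20.3 to 57.8) in WT, a log2 ratio of 2.47 (1.90 to 3.45), against -0.93 in C1q-low cells. Among C1q-high cells without a UMI of the Cd3 chains or the T cell receptor constant genes it was 1.42.

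**Figure D3:**
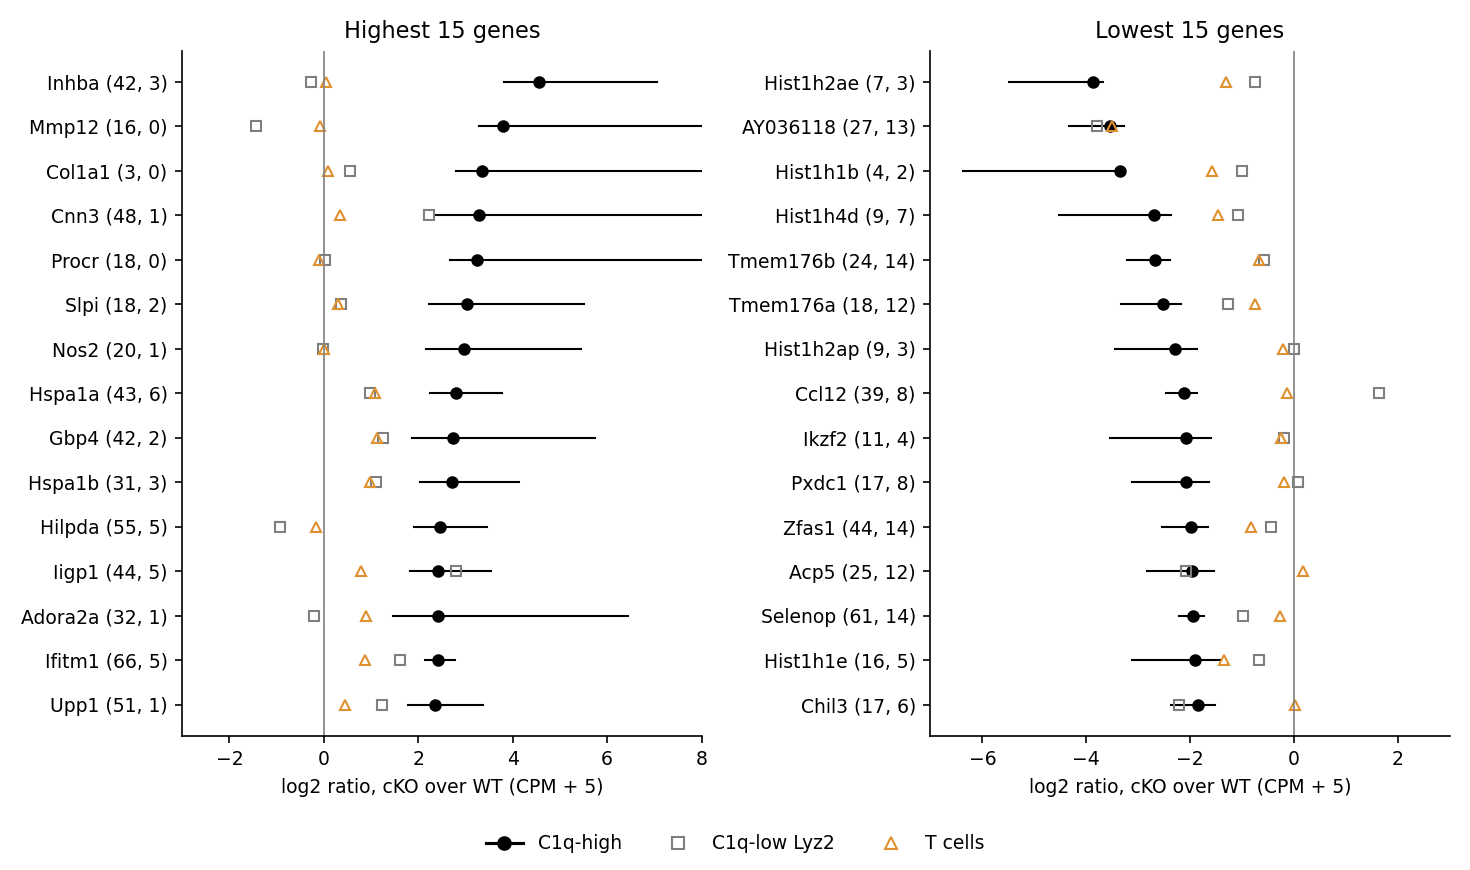
Log2 ratio of CPM + 5, cKO over WT, for the 15 highest and 15 lowest genes in C1q-high cells (points), with the 95% counting interval of the plain ratio without the added 5 CPM (lines, ended at the axis limit where open, and started at the bound for 3 counts where WT had no UMI), and the same ratio in C1q-low Lyz2 cells (squares) and T cells (triangles). Numbers in brackets are C1q-high cells with a UMI in cKO and in WT; AY036118 lies between -3.79 and -3.51 in all 3 classes, whereas Inhba lies at 4.55 in C1q-high cells and at -0.27 in C1q-low cells.

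Of 15 interferon gamma-induced genes that passed the filter (21 listed), 8 were at least 2-fold higher in cKO C1q-high cells and none lower, with a median log2 ratio of 1.04. Over all 4923 genes, 3.88% were at least 2-fold higher and 2.05% lower, with a median of 0.06. The list's median was 1.32 in C1q-low cells and 0.90 in T cells, where the same list thus also stood above 0. The count was 4 of 16 among cells with at least 100 C1q UMIs and 4 of 17, with 1 lower, among cells without a UMI of the Cd3 chains or the T cell receptor constant genes. It was 13 of 16 without the deepest 10% of cells and with each cell thinned to 8600 UMIs. Cxcl9, a chemokine for T cells, stood at 1899.8 CPM (1833 to 1968) in cKO and 921 CPM (834 to 1014) in WT, a log2 ratio of 1.04 (0.90 to 1.20) against 2.62 in C1q-low cells. Irf1, a transcription factor of the response, stood at 151 CPM (133 to 172) in cKO and 57.8 CPM (37.8 to 84.7) in WT, a log2 ratio of 1.32 (0.80 to 2.03). Gbp2, an antimicrobial GTPase, stood at 609 CPM (571 to 648) in cKO and 285 CPM (238 to 339) in WT, a log2 ratio of 1.08 (0.83 to 1.37). Of 20 type I interferon genes, 1 was at least 2-fold higher and none lower, with a median of 0.32; without the deepest 10% of cells the count was 6 of 20.

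The 19 genes of hypoxia and glycolysis that passed the filter (21 listed) were all above 0 and 5 passed 2-fold: Hilpda, Ndrg1, Ero1l, Pfkp and Bnip3. The list's median was 0.64 in C1q-high cells and 0.02 in C1q-low cells. Over all genes of C1q-high cells the median was 0.06, and 3.88% were at least 2-fold higher and 2.05% lower. Ndrg1, a stress-induced gene, stood at 122 CPM (105 to 139.9) in cKO and 22.2 CPM (10.7 to 40.9) in WT. Pfkp, a phosphofructokinase of glycolysis, stood at 150.1 CPM (132 to 170.2) in cKO and 48.9 CPM (30.7 to 74.1) in WT. Of 16 growth factor and matrix genes (24 listed), 6 passed 2-fold upwards and none downwards: Mmp12, Areg, Mmp19, Plau, Spp1 and Timp1. Among cells without a UMI of the Cd3 chains or the T cell receptor constant genes the count was 4 of 15 and the Spp1 log2 ratio 0.81. The whole list had a median of 0.57, against -0.16 in C1q-low cells. Mmp19, a matrix protease, stood at 279 CPM (254 to 306) in cKO and 82.3 CPM (57.95 to 113) in WT, and Spp1, or osteopontin, at 1051 CPM (1002 to 1102) in cKO and 460.5 CPM (399.9 to 528) in WT. For Spp1, 1 cell held 53.6% of the WT UMIs. In C1q-low cells the Spp1 log2 ratio was -0.98.

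Arg1, the arginase of alternatively activated macrophages, stood at 1233 CPM (1179 to 1288) in cKO and 556 CPM (489 to 629.5) in WT, a log2 ratio of 1.14 (0.96 to 1.34), against -0.46 in C1q-low cells. Il1rn, the interleukin 1 receptor antagonist, stood at 1147 CPM (1095 to 1200.0) in cKO and 363 CPM (309 to 423) in WT, a log2 ratio of 1.65 (1.43 to 1.90), and Cd274, which encodes the inhibitory ligand PD-L1, at 229 CPM (206 to 253) in cKO and 118 CPM (88.3 to 154) in WT, a log2 ratio of 0.93 (0.54 to 1.40). Il1b stood at 4365 CPM (4264 to 4468) in cKO and 4494 CPM (4299.8 to 4694) in WT, a log2 ratio of -0.04 (-0.11 to 0.03). Of 10 heat shock genes (12 listed), 3 passed 2-fold upwards, Hspa1a, Hspa1b and Dnajb1, with a list median of 0.58. Over all genes 3.88% passed 2-fold upwards and 2.05% downwards, with a median of 0.06. Of 16 chemokines that passed the filter, 4 passed 2-fold upwards (Pf4, Ccl8, Ccl6 and Cxcl9) and 1 downwards (Ccl12). The Pf4 log2 ratio was 1.52 (1.24 to 1.86), and 0.59 without the deepest 10% of cells; that of Ccl8 was 1.40 (1.11 to 1.76), and 0.98 without the cell with most UMIs. Ccl12, a monocyte chemokine (chromosome 11, 82101845 to 82103400, plus strand), stood at 111 CPM (95.6 to 129) in cKO and 498 CPM (435 to 568) in WT in 39 of 88 cKO and 8 of 15 WT cells. Its log2 ratio was -2.11 (-2.45 to -1.87), against 1.64 in C1q-low cells, where 29 of 164 cKO and 4 of 44 WT cells had a UMI. A single cell held 46.4% of the WT UMIs in C1q-high cells. The ratio there was -1.56 without the cell with most UMIs and -1.37 with each cell weighted equally. The difference between the classes was not tested.

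**Figure D4:**
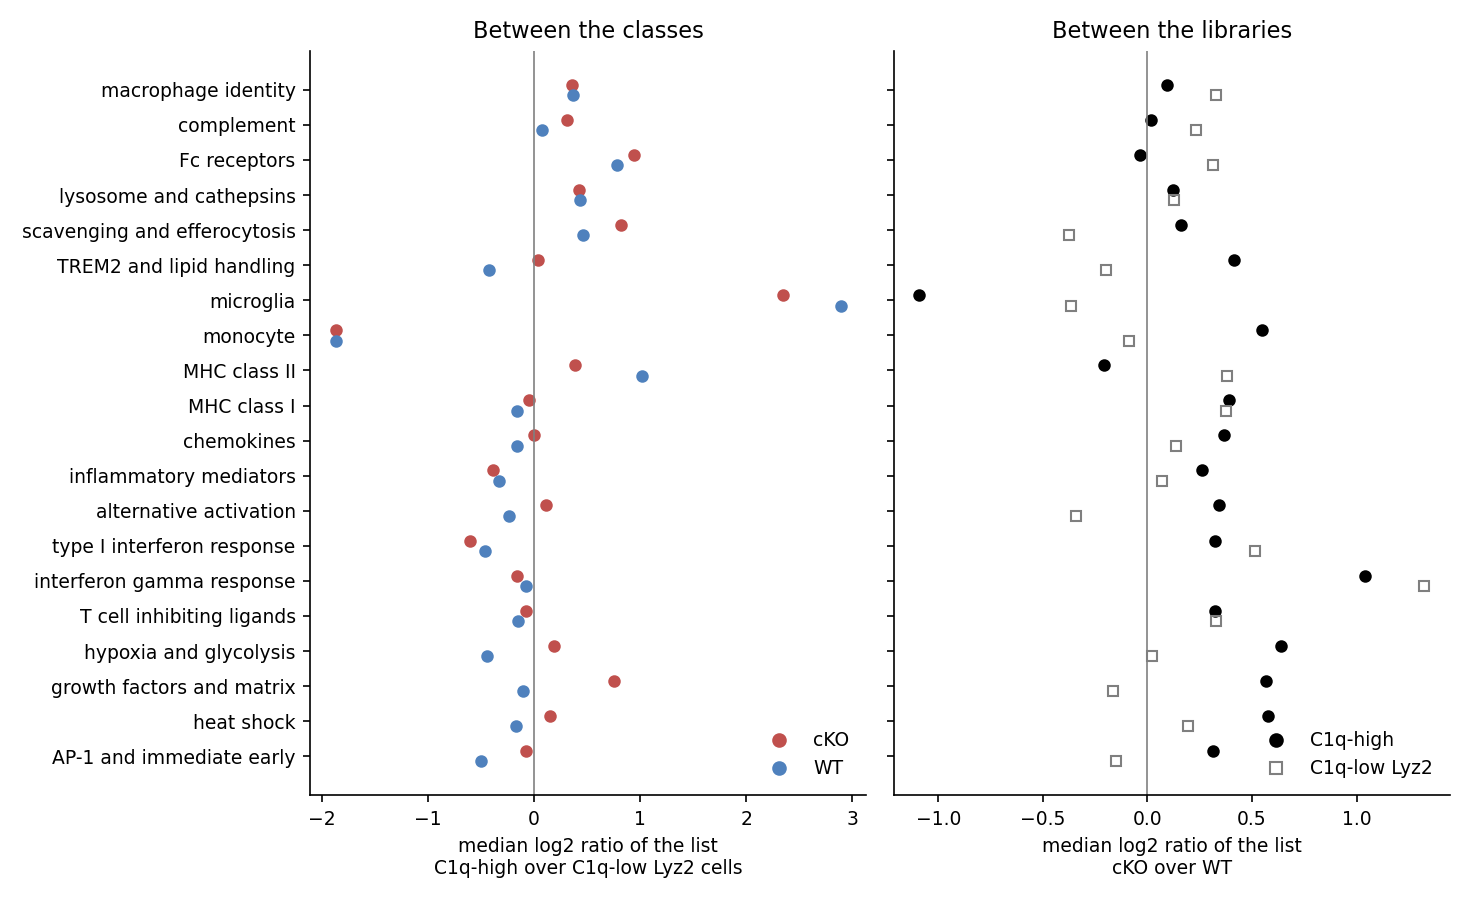
Median log2 ratio of each gene list, left C1q-high over C1q-low Lyz2 cells in each library and right cKO over WT in each class. The monocyte list lies at -1.87 in cKO and -1.87 in WT on the left, and the interferon gamma list at 1.04 in C1q-high and 1.32 in C1q-low cells on the right.

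Among the genes lowest in cKO, Selenop stood at 174 CPM (154 to 196) in cKO and 681 CPM (607 to 761) in WT in 61 of 88 cKO and 14 of 15 WT cells, a log2 ratio of -1.94 (-2.20 to -1.73). Tmem176b, an ion channel of endosomes, stood at 48.2 CPM (38.1 to 60.1) in cKO and 334 CPM (282 to 392) in WT, a log2 ratio of -2.67 (-3.21 to -2.39), and its neighbour Tmem176a at 25.3 CPM (18.2 to 34.4) in cKO and 169 CPM (133 to 212) in WT, a log2 ratio of -2.52 (-3.32 to -2.17). In C1q-low cells the same ratios were -0.99, -0.57 and -1.27. Acp5, an acid phosphatase of osteoclasts and macrophages, stood at 23.5 CPM (16.6 to 32.2) in cKO and 107 CPM (78.7 to 142) in WT. Chil3, a chitinase-like protein, stood at 55.6 CPM (44.7 to 68.3) in cKO and 214 CPM (173 to 261) in WT and differed in the same direction in C1q-low cells, by -2.22. AY036118, a transcript whose function is not given in the files, was lower by about the same log2 ratio in C1q-high (-3.54), C1q-low (-3.79) and T cells (-3.51).

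The lowest genes also held 5 histone genes of dividing cells, Hist1h2ae, Hist1h1b, Hist1h4d, Hist1h2ap and Hist1h1e, and a single WT cell held 75.9% to 97.1% of their WT UMIs. The same cell held 80.0% of the WT Mki67 UMIs and had 3 Cd3 UMIs. Ikzf2, a factor of Tregs, had 88.5% of its WT UMIs in the cell that held most Ccr7. These values describe single cells. Without the cell with most UMIs of each gene, the log2 ratios of Ikzf2 and Hist1h2ap were 0.05 and 0.56. Pxdc1 and Zfas1 completed the 15.

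Among 15 genes of macrophage identity (17 listed) none passed 2-fold, with a median of 0.09. Adgre1 stood at 184 CPM (164 to 206) in cKO and 358 CPM (305 to 418) in WT and Trem2 at 321 CPM (294 to 350.1) in cKO and 345 CPM (293 to 404) in WT. Of 12 MHC class II genes that passed the filter, 9 were below 0 in C1q-high cells with a median of -0.21, while the median was 0.38 in C1q-low cells; Cd80, a costimulatory ligand, alone passed 2-fold, upwards. The rule genes stood at 3179 CPM (3092 to 3267) in cKO and 5125 CPM (4918 to 5339) in WT for C1qa and 4203 CPM (4104 to 4304) in cKO and 9986 CPM (9696 to 10283) in WT for Apoe; these chose the cells and carry no test.

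The fixed depth of 8600 UMIs also served to set shares of the libraries side by side. Inhba had a UMI in 41.8% of cKO (30.8 to 53.4) and 0% of WT C1q-high cells, where a count of 0 among 14 cells allows up to 21.4% with a UMI at this depth. The cKO and WT shares of Inhba were 52.6% and 14.3% at 17700 UMIs (38 and 14 cells), and 47.7% and 20% without thinning (42 of 88 and 3 of 15 cells). Nos2 had a UMI in 21.5% of cKO (13.1 to 32.2) and 0% of WT C1q-high cells, with the same limit of 21.4%, which lies inside the cKO interval. In T cells the shares were 0.233% and 0.177% for Inhba and 0.350% and 0.177% for Nos2 in cKO and WT. Cd72 had a UMI in 58.2% of cKO (46.6 to 69.2) and 92.9% of WT C1q-high cells (66.1 to 99.8). Cd274 had one in 75.9% of cKO (65.02 to 84.9) and 42.9% of WT C1q-high cells (17.7 to 71.1), and without thinning in 88.6% and 80%. Arg1 had one in 77.2% of cKO (66.4 to 85.9) and 57.1% of WT C1q-high cells (28.9 to 82.3). For Cd72, Cd274 and Arg1 the intervals overlap, and cells of 1 library give no test of the difference. Mrc1 had a UMI in 39.2% of cKO (28.4 to 50.9) and 57.1% of WT C1q-high cells (28.9 to 82.3). Among the 79 cKO cells, 14 had both Arg1 and Nos2 UMIs, 47 had Arg1 alone, 3 had Nos2 alone and 15 had neither.

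**Figure D5:**
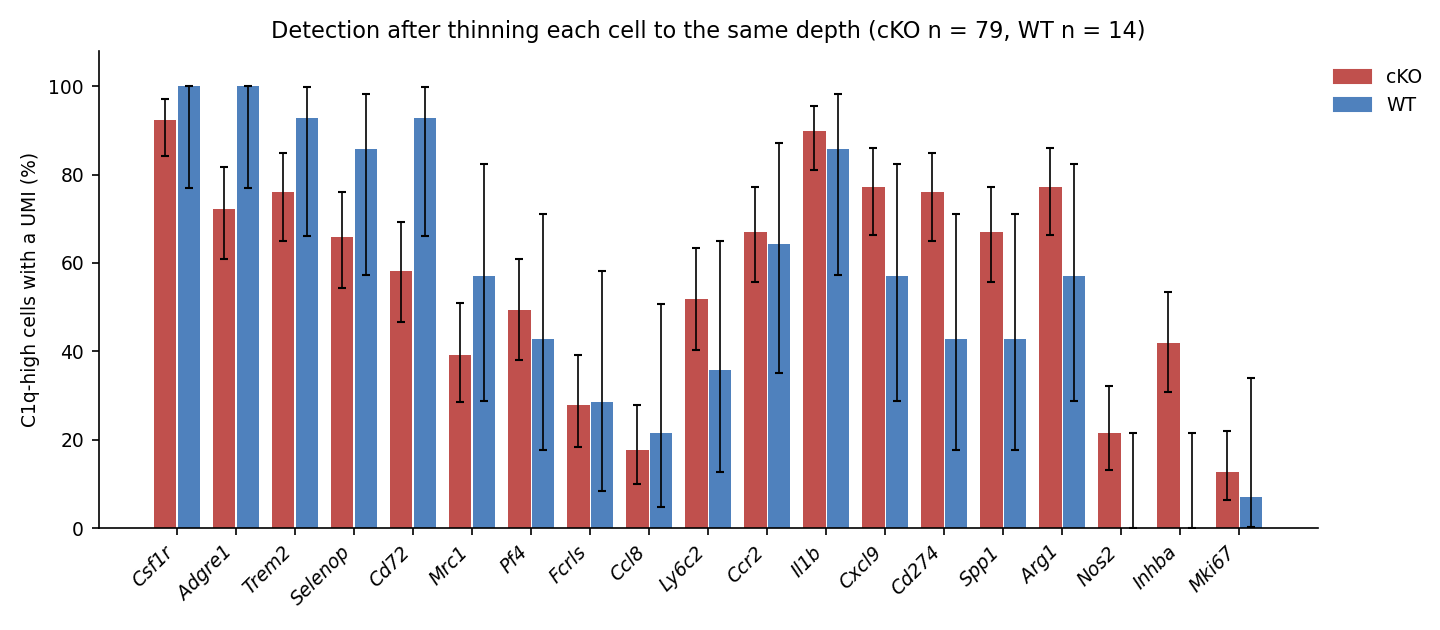
Share of C1q-high cells with a UMI after thinning to 8600 UMIs, cKO (79 cells) left of WT (14 cells) for each gene, with exact Clopper-Pearson 95% intervals, which account for counting error alone; at 0 the line ends at the share that a count of 0 allows. Inhba and Nos2 are detected in 41.8% and 21.5% of cKO cells and in 0 of the WT cells, where up to 21.4% is allowed.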

How the data were processed

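Tumours were digested, per the labels' protocols, and lymphocytes enriched on Percoll, Tregs selected magnetically and sorted, and 3' droplet libraries made. Per the submitters' processing notes, Cell Ranger 5.0.1 was used with mm10. The deposited values are UMI counts per gene and barcode, made by the authors and not normalized, for 32285 genes in 1 library per group.

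From these counts, UMIs were summed per library and cell class and scaled to CPM, with exact Poisson intervals. Ratios carry exact conditional binomial intervals without the added 5 CPM, and shares carry exact Clopper-Pearson intervals, all at 95%. UMIs and cells of 1 sample are not replicates, so no test was run. The filter was a mean of at least 20 CPM over the sums compared (4 for C1q-high against C1q-low cells, 2 for cKO against WT). A count of 0 was bounded by 3 counts per library. Shares were computed after thinning, with a fixed seed. No doublet caller was run. Cells without a UMI of the Cd3 chains or the T cell receptor constant genes, and cells below the deepest 10%, were analysed as alternatives.

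The members and gene lists were chosen with earlier results of these data known. Named genes were the 15 highest and 15 lowest in each comparison (for the first, by the smaller absolute ratio of both libraries), up to 4 per list by size, and a fixed set of macrophage genes; rankings left out the genes of the rule, of the T cell receptor and of sex. Results for a few genes are not reported here. Fn1, P2ry12, Capg, Gzmb, Ccl5, Bst2, Irf8, Gbp2, Irf1, Mki67, other list members named as past 2-fold or at 0, and the single cells described were picked after their values were seen. Gene positions came from GENCODE M21, which matched 32158 of 32285 identifiers. Python 3.11.15, numpy 2.4.6, scipy 1.17.1, pandas 2.3.3 and matplotlib 3.10.9 were used, and the ratio and interval code was tested on simulated data.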

Additional observations from a re-analysis of the deposited data

Results flagged for a closer look

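The 3 genes flagged here had log2 ratios of cKO over WT on opposite sides of 0 in C1q-high and C1q-low Lyz2 cells. They were not the only ones, since Inhba, Spp1 and Arg1, given above, also had opposite signs. Ccl12 stood at -2.11 in C1q-high cells and at 1.64 in C1q-low cells. Hilpda stood at 2.47 in C1q-high cells and at -0.93 in C1q-low cells. Mmp12, which had no UMI in WT C1q-high cells, stood at 3.80 in C1q-high cells on the scale of CPM + 5, a fitted value and no bound, and at -1.44 in C1q-low cells. With 1 library per group the difference between the classes was not tested.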

How the results depend on the processing

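No paired analysis was possible because each group had 1 library and no test was run, and for the same reason no replicate could be left out. C1q-high cells were 2.41% of cKO and 0.390% of WT barcodes at a C1q threshold of 5 UMIs, and 2.32% and 0.624% with every barcode thinned to 4000 UMIs. The main counts were 81 genes higher and 91 lower for C1q-high over C1q-low, and 191 higher and 101 lower for cKO over WT. A pseudocount of 20 CPM gave 49 and 50, then 95 and 47, a mean of at least 50 CPM gave 42 and 53, then 86 and 51, and no filter gave 159 and 141, then 576 and 270. For cKO over WT, weighting each cell equally gave 363 higher. Cells with no UMI of the Cd3 chains or T cell receptor constant genes (52 in cKO and 8 in WT) gave 304 higher and 206 lower, leaving out the deepest 10% gave 338 and 158, thinning gave 503 and 329, and leaving out the cell with most UMIs of each gene gave 340 and 56. This last alternative, and a C1q threshold of 100 UMIs, were chosen after seeing the data.

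Of 2440 log2 ratios of cKO over WT recomputed for named genes, 2105 stayed within the counting interval, 321 lay outside it, and 14 that had been at least 2-fold apart changed sign. Among cells with no UMI of the Cd3 chains or T cell receptor constant genes these were Ccr7 (1.78), Hist1h2ap (0.055), Hist2h2ac (0.55), Ikzf2 (0.62), Mgl2 (2.18), Pclaf (1.82) and Sparc (-0.34). In the same cells Pclaf stood at -1.74 for C1q-high over C1q-low in WT, the 1 such change among 660 values. Of 132 shares recomputed without thinning or at 17700 UMIs, 40 left their interval. Thinning gave Tyms 0.056, and the threshold of 100 UMIs gave Ikzf2 0.22. Leaving out the cell with most UMIs gave Hist1h2ap 0.56, Hist2h2ac 0.46, Ikzf2 0.050, Mgl2 0.42 and Pclaf 2.50. The cause was not tested. The 15 WT cells, with 449525 UMIs in all, limit every comparison with WT.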
